A study of Mus musculus with 2 samples.

Results

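The genes that present antigen on MHC class II were followed through scRNA-seq of mouse liver. They were H2-Aa, H2-Ab1 and H2-Eb1, which encode chains of the class II molecules themselves, H2-DMa and H2-DMb1, which encode the chains of the peptide exchanger H2-DM, Cd74, which encodes the invariant chain, and Ciita, which encodes the transactivator of the whole set. Rows were taken by gene symbol, which found 7 of 7 among the 32285 genes counted. The WT library came from liver of control mice, labelled CTRL. The N-LKO library came from liver plus tumor of mice in which NgBR (Nus1) is deleted in the liver. In the study's methods the deletion is made by albumin-Cre, which acts in hepatocytes, on loxP-flanked alleles, and all strains are in the C57BL6 background and male. Both groups had the diet for 16 weeks, which the titles call HFD and the treatment labels call WD. There was 1 library per group, and the number of mice behind each was not given in the sources used here. Genotype, tumor tissue and library cannot be told apart in any comparison below, no test across samples was possible, and every interval is a 95% interval that covers counting error only.

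Class II molecules are dimers of an alpha and a beta chain that carry peptides from endocytosed protein to the surface, where CD4+ T cells read them. The invariant chain holds the groove closed on the way to the endosome, cathepsins degrade it there, and H2-DM exchanges its last fragment for peptide. Dendritic cells, B cells and macrophages express the set constitutively under the control of Ciita, whereas interferon gamma can induce it elsewhere. In the liver, Kupffer cells are the resident macrophages.

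Barcodes with at least 1000 UMIs (unique molecular identifiers, 1 per captured transcript) were kept, which left 18434 WT cells and 19851 N-LKO cells with median depths of 1401 and 1454 UMIs. Cells were clustered without any class II gene, so that the levels below did not define the classes, and a class is written as "X-like" after marker genes. The limit on mitochondrial UMIs was 30%. A limit of 10% would have left 3751 WT and 2689 N-LKO cells, so most of the kept cells were above 10%. The libraries shared 2499 barcode sequences. Nus1 was at 74.3 CPM (UMIs per 1000000 UMIs of the class, 70.2 to 78.7) in WT hepatocyte-like cells and at 38.8 CPM (33.3 to 44.9) in N-LKO hepatocyte-like cells. In the study's methods, hepatocytes were combined with nonparenchymal cells in a chosen proportion before loading, with tumor cells added for N-LKO, so the share of each class is partly set by the mixing. Hepatocyte-like cells were 52.3% of WT cells and 10.6% of N-LKO cells. An unnamed cluster led by Eda and Grip1, which is in none of the named classes, held 2415 N-LKO cells and 20 WT cells.

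H2-DMa, H2-DMb1, H2-Ab1, H2-Aa and H2-Eb1 lie together on chromosome 17, within chr17:34119541-34316674 of GRCm38 (GENCODE M21), a span of 197 kb. H2-Aa (ENSMUSG00000036594) is on the reverse strand at chr17:34282744-34287823, and H2-Ab1 (ENSMUSG00000073421) is on the forward strand at chr17:34257689-34269419. H2-Eb1 (ENSMUSG00000060586, chr17:34305867-34316674), H2-DMa (ENSMUSG00000037649, chr17:34119541-34139101) and H2-DMb1 (ENSMUSG00000079547, chr17:34153072-34160230) are on the forward strand. Ciita (ENSMUSG00000022504) is at chr16:10480059-10528418 on the forward strand, and Cd74 (ENSMUSG00000024610) lies outside this locus. Class II promoters are known for an array of boxes, named X and Y, that RFX, CREB and NF-Y proteins bind and on which Ciita docks. RefSeq windows from 250 bases before to 50 bases after the start (GRCm38.p6) were found for 4 of the 7 genes. The stretches around the Y box of 3 of them are shown because they hold the boxes through which Ciita is known to act. Capitals mark the X box letters (AGCAACTGATG with any base in the third and the seventh place), TGACGTCA (a CREB site, the X2 box) and CCAAT or its complement ATTGG (Y box), each searched on both strands and without overlap among the matches shown.
H2-Aa, chr17:34287857-34287916, reverse strand: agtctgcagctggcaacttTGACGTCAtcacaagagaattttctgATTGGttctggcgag
H2-Eb1, chr17:34305763-34305822, forward strand: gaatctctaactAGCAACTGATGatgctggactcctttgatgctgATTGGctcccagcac
H2-DMb1, chr17:34153085-34153144, forward strand: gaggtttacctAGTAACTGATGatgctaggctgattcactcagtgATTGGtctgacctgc

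The X letters began 92 bases before the RefSeq start of H2-Eb1 and 95 bases before that of H2-DMb1, and the Y letters followed at 59 and 61 bases. For H2-DMb1 the RefSeq start lies downstream of the GENCODE start (chr17:34153072), so the stretch shown is inside the GENCODE gene. In H2-Aa the CREB site began at 74 bases and the Y letters at 48 bases before the start. Of all 32851 RefSeq windows, 0.298% held the X letters, 1.79% held TGACGTCA and 37.4% held CCAAT on either strand. Only 3 windows held the X letters followed by ATTGG with starts 30 to 40 bases apart, and they belonged to H2-DMb1, H2-Eb1 and H2-Eb2. The letters were chosen after these windows had been seen, and a match is not a measured binding site.

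Class II transcripts were highest in dendritic-like cells, then in macrophage-like and B-like cells, in both libraries. The 7 genes summed gave 8051 CPM (7844 to 8263) in WT dendritic-like cells and 9327 CPM (9191 to 9466) in N-LKO dendritic-like cells. Macrophage-like cells had 6004 CPM (5902 to 6108) in WT and 7234 CPM (7170 to 7297) in N-LKO, and B-like cells had 3474 CPM (3297 to 3657) and 4343 CPM (4227 to 4462). These 3 classes kept the same order in both libraries, with no overlap of their intervals. The lowest levels were those of hepatocyte-like cells, at 251 CPM in WT against 452 CPM in N-LKO, and of endothelial-like cells, at 285 and 750 CPM.

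**Figure D1:**
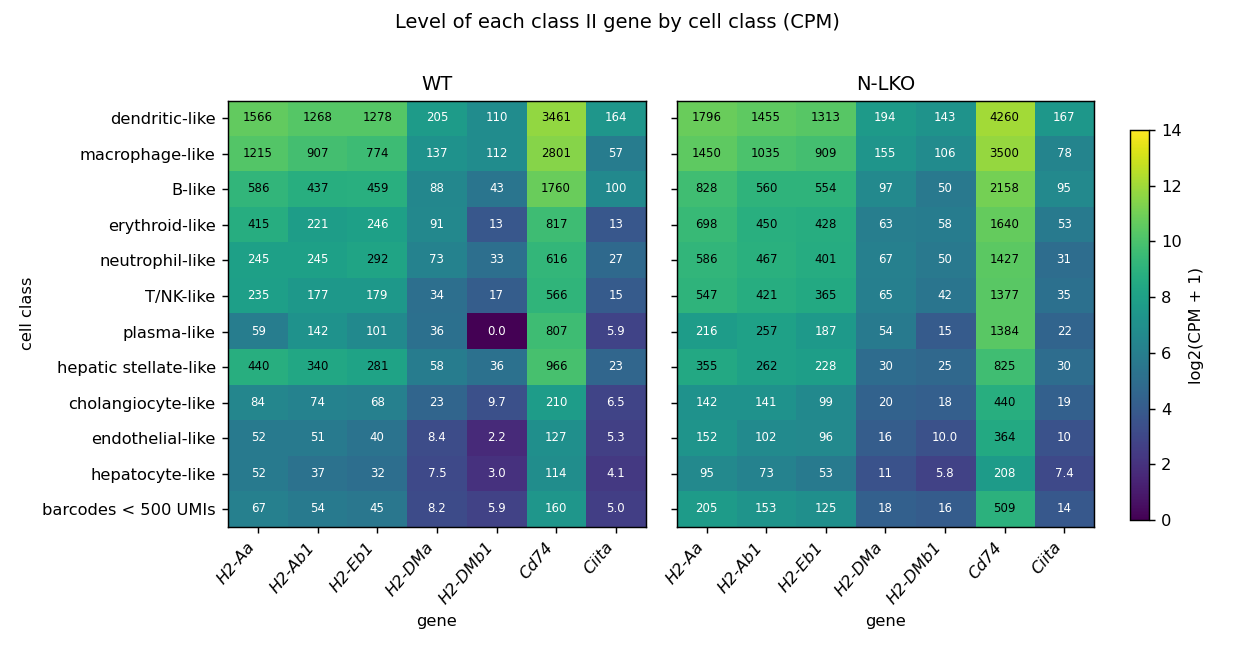
Level of each class II gene (columns) in each cell class (rows) in WT and N-LKO, in CPM, with color on the log2(CPM + 1) scale; the last row is the pool of barcodes under 500 UMIs. Dendritic-like, macrophage-like and B-like cells lead in both libraries (H2-Aa at 1566, 1215 and 586 CPM in WT), and hepatocyte-like and endothelial-like cells are near or under the last row.

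The 11 classes with at least 50 cells in each library fell into an order with few ties. In WT, hepatic stellate-like cells (2144 CPM, 2074 to 2215) followed B-like cells, and their interval overlapped that of erythroid-like cells (1816 CPM, 1528 to 2143), which in turn overlapped that of neutrophil-like cells (1531 CPM, 1340 to 1741). T/NK-like cells (1223 CPM) and plasma-like cells (1151 CPM) also had overlapping intervals. In N-LKO, the only neighbors with overlapping intervals were erythroid-like cells (3390 CPM, 3133 to 3663) and neutrophil-like cells (3030 CPM, 2928 to 3134). Stellate-like cells moved from 4th place in WT to 8th in N-LKO, at 1755 CPM (1678 to 1835). Cholangiocyte-like, endothelial-like and hepatocyte-like cells took the last 3 places in both libraries.

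Per cell, thinned to 1000 UMIs so that depth was equal, the antigen-presenting classes separated clearly from the parenchyma. H2-Aa was detected in 58.5% of WT and 69.5% of N-LKO dendritic-like cells, in 57.3% and 61.6% of macrophage-like cells and in 37.9% and 46.3% of B-like cells. In hepatocyte-like cells, which are not known to express class II constitutively, the share was 5.26% in WT and 8.38% in N-LKO. Before thinning the dendritic-like shares were 64.4% and 76.7% at median depths of 1365 and 1376.5 UMIs, and the hepatocyte-like shares were 7.81% and 14.9% at 1509 and 1931 UMIs. H2-Aa and H2-Ab1, the chains that pair to form the I-A molecule, were detected together in 41.9% (37.5 to 46.5) of WT and 51.4% (48.6 to 54.3) of N-LKO dendritic-like cells. In B-like cells the joint share was 16.7% (12.8 to 21.3) in WT and 20.5% (17.7 to 23.5) in N-LKO.

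Ciita followed a slightly different order from the genes it controls. It was at 164 CPM in WT against 167 CPM in N-LKO dendritic-like cells, then at 100 and 95.3 CPM in B-like cells, and at 57.2 and 78.4 CPM in macrophage-like cells. The Ciita level was higher in B-like than in macrophage-like cells while H2-Aa was lower, at 586 against 1215 CPM in WT and 828 against 1450 CPM in N-LKO. Counted against H2-Aa, there were 0.171 Ciita UMIs (0.121 to 0.239) per H2-Aa UMI in WT B-like cells and 0.0470 (0.0390 to 0.0563) in WT macrophage-like cells. In N-LKO these values were 0.115 (0.0941 to 0.140) and 0.0541 (0.0495 to 0.0589). The intervals of this number did not overlap between the B-like and macrophage-like classes in either library, while those of the Ciita level itself were separate in WT (72.4 to 136 and 47.6 to 68.1 CPM) and overlapped in N-LKO (78.8 to 114 and 71.9 to 85.3 CPM). These are counts of 3′ tags, which are not scaled to transcript length.

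The dendritic-like class held 477 WT and 1246 N-LKO cells from 3 clusters, and class II levels differed more among these clusters than between the libraries. The cluster led by Xcr1 and Wdfy4, markers of type 1 conventional dendritic cells that cross-present antigen, had the highest class II level of all clusters, 12535 CPM in WT (187 cells) and 12075 CPM in N-LKO (392 cells). The cluster led by Il12b, Ccl22 and Ccr7, genes of mature dendritic cells migrating to lymph nodes, had 8883 CPM in WT (97 cells) and 11160 CPM in N-LKO (495 cells). It is called mature below, but its marker scores were close, 0.885 for mature and 0.807 for type 2 conventional dendritic cells. The cluster led by Siglech and Ccr9, markers of plasmacytoid dendritic cells that produce type I interferon, had 2411 CPM (193 cells) and 2955 CPM (359 cells).

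Type 1 cells carried 5.20-fold (4.78 to 5.67) the class II level of plasmacytoid cells in WT and 4.08-fold (3.87 to 4.32) in N-LKO. For Ciita the fold was 9.79 (4.84 to 26.7) in WT, from 84 and 7 UMIs, and 4.82 (3.13 to 8.08) in N-LKO, from 149 and 22 UMIs. H2-Ab1 was detected after thinning in 85.6% of WT and 84.4% of N-LKO type 1 cells, and in 21.8% and 26.5% of plasmacytoid cells.

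**Figure D2:**
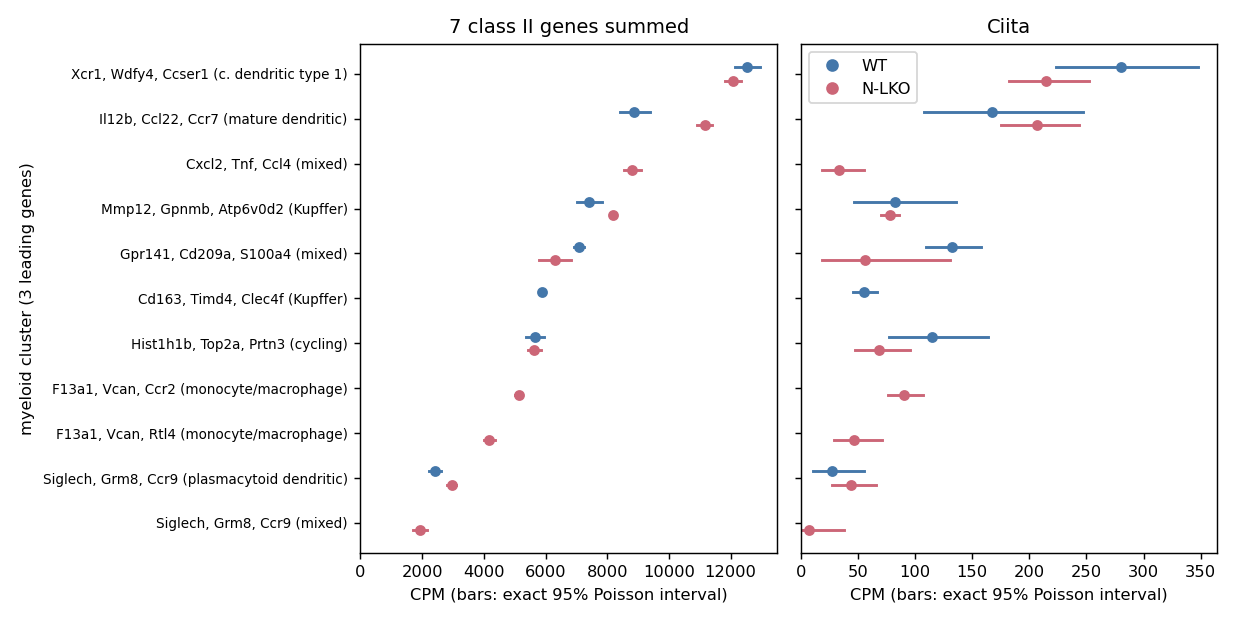
Class II level (left, 7 genes summed) and Ciita level (right) in CPM in each myeloid cluster with at least 50 cells in a library; points are libraries and bars are exact 95% Poisson intervals. The Xcr1-led cluster stands highest (12535 CPM in WT, 12075 CPM in N-LKO) and the Siglech-led clusters lowest.

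Between the libraries, class II genes in dendritic-like cells differed little. H2-Aa was at 1566 CPM in WT against 1796 CPM in N-LKO, Cd74 at 3461 and 4260 CPM, H2-Ab1 at 1268 and 1455 CPM, and H2-DMb1 at 110 and 143 CPM. H2-Eb1 (1278 and 1313 CPM), H2-DMa (205 and 194 CPM) and Ciita (164 and 167 CPM) had ratios whose intervals held 0. None of the 7 genes differed 2-fold between the libraries, beside 18.0% of the 11486 genes tested in this class (those at 5 CPM or more in a library). The median log2 ratio, N-LKO over WT, was 0.20 over the 7 genes, that of H2-Aa (0.10 to 0.30), and -0.00284 over all genes tested. The makeup of the class moved with it. Mature cells were 20.3% of the WT class and 39.7% of the N-LKO class, and plasmacytoid cells were 40.5% and 28.8%. With the 3 clusters weighted as in WT, the summed N-LKO level was 8537 CPM, a log2 ratio of 0.08. With a mitochondrial limit of 10% the median ratio was -0.0048, from 144 WT and 109 N-LKO dendritic-like cells.

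Within the clusters the genes moved unevenly. Among type 1 cells the summed log2 ratio was -0.05 (-0.11 to 0.00190), and among mature cells it was 0.33 (0.25 to 0.41). In mature cells the largest ratio was that of H2-DMa, 1.41 (0.55 to 2.57), from 10 WT and 132 N-LKO UMIs, whereas in type 1 cells H2-DMa had -0.45 (-0.80 to -0.08) from 104 and 177 UMIs. In plasmacytoid cells the summed ratio was 0.29 (0.16 to 0.43). The class held no cluster named for type 2 conventional dendritic cells, though the mature cluster scored nearly as high for their markers as for its own. A cluster led by Gpr141, Cd209a and S100a4 shared type 2 dendritic and monocyte markers, was left out as mixed, and lay mostly in WT (712 WT cells, 59 N-LKO cells), with a class II level of 7087 CPM in WT against 6295 CPM in N-LKO.

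B-like cells, 317 in WT and 780 in N-LKO, formed 1 cluster led by Ebf1, Pax5 and Ighd. H2-Aa was at 586 CPM in WT against 828 CPM in N-LKO, with a ratio (log2) of 0.50 (0.30 to 0.71), and Cd74 was at 1760 and 2158 CPM, a ratio of 0.29 (0.18 to 0.41). Ciita had a ratio of -0.09 (-0.60 to 0.47) from 42 and 116 UMIs, and the ratios of H2-DMa and H2-DMb1 also had intervals that held 0. None of the 7 genes differed 2-fold, beside 24.7% of 11576 genes tested. The median over the 7 genes was 0.27 (that of H2-Eb1, 0.04 to 0.51), against 0.04 over all genes. With the expected free RNA subtracted the median was 0.02. H2-Ob, a chain of the H2-O molecule that restrains H2-DM in B cells, was at 64.5 CPM in WT against 55.9 CPM in N-LKO B-like cells, and at 1.37 and 3.75 CPM in macrophage-like cells.

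Macrophage-like cells were drawn from different clusters in the 2 libraries. Of 1503 WT cells, 1391 lay in a cluster led by Cd163, Timd4 and Clec4f, markers of resident Kupffer cells, which held 27 N-LKO cells. Of 4509 N-LKO cells, 3071 lay in a cluster led by Mmp12, Gpnmb and Trem2, genes of lipid-associated macrophages, which held 96 WT cells. By its marker scores this cluster was also named Kupffer, with 7 Kupffer markers raised. It scored 0.695 for the Kupffer list and 0.242 for the monocyte or monocyte-derived macrophage list. A further 1177 N-LKO cells were in a cluster led by F13a1, Vcan and Ccr2, markers of monocytes (15 WT cells). A cluster that is mostly 1 library may be that library and not a cell type.

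The Cd163-led cluster of WT had a class II level of 5883 CPM, the Mmp12-led cluster 7422 CPM in WT against 8173 CPM in N-LKO, and the Ccr2-led monocyte cluster of N-LKO 5134 CPM. Ciita was at 55.5 CPM in the Cd163-led cluster of WT, at 82.4 and 77.9 CPM in the Mmp12-led cluster of WT and N-LKO, and at 90.6 CPM in the monocyte cluster. In the Mmp12-led cluster, the one with at least 50 cells of both libraries, the summed log2 ratio was 0.14 (0.06 to 0.22). The median log2 ratio over the class II genes was only 0.014 in this cluster, that of H2-Aa. Single genes ranged from -0.56 (H2-DMb1) to 0.30 (Cd74).

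Over the whole macrophage-like class, Cd74 was at 2801 CPM in WT against 3500 CPM in N-LKO, H2-Aa at 1215 and 1450 CPM, and Ciita at 57.2 and 78.4 CPM. The ratio of H2-DMb1 was -0.09 (-0.29 to 0.13), while the other 6 ranged from 0.17 to 0.45. None of the 7 differed 2-fold, beside 13% of 10904 genes tested, and their median was 0.23 (that of H2-Eb1, 0.15 to 0.31) against -0.07 over all genes. This direction turned with the choice of cells. With a mitochondrial limit of 10% the median was -0.32, from 275 WT and 141 N-LKO cells, and among cells without a UMI of the 7 Kupffer markers it was -0.48, where WT had 67 cells and N-LKO 1324.

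**Figure D3:**
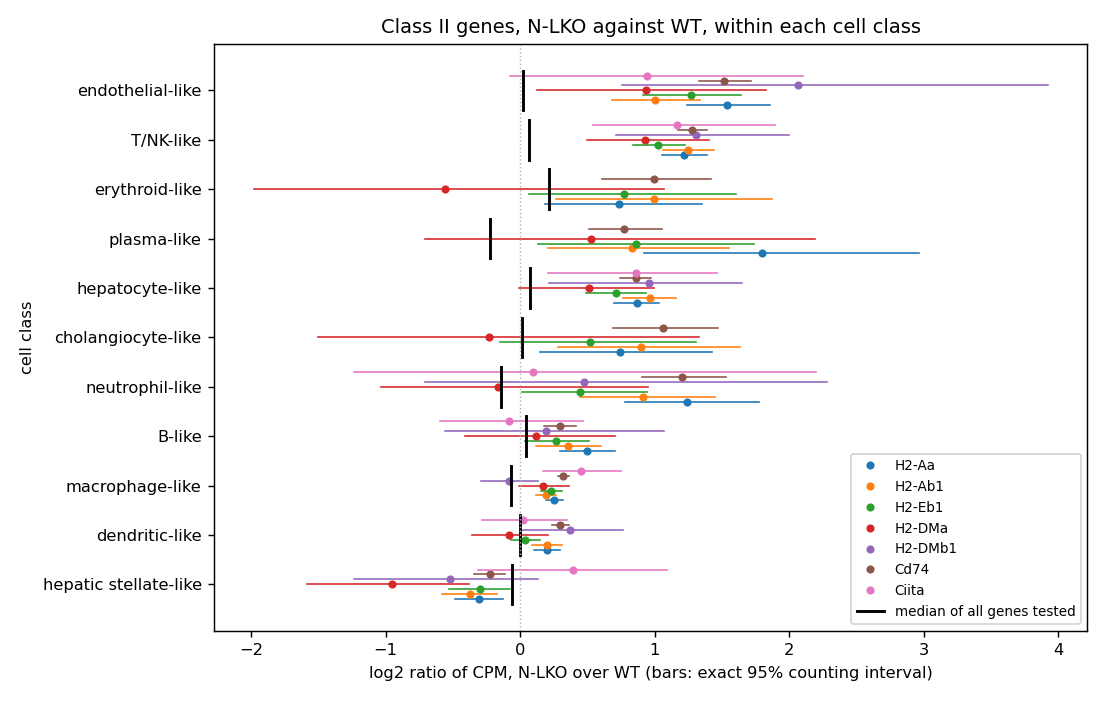
Log2 ratio of CPM, N-LKO over WT, of each class II gene in each cell class, with exact 95% counting intervals; black lines give the median of all genes tested, and genes with 3 or fewer WT UMIs in a class are not drawn. Dendritic-like, macrophage-like and B-like cells lie near 0 (medians 0.20, 0.23 and 0.27), T/NK-like and endothelial-like cells above 1, and hepatic stellate-like cells below 0.

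Larger ratios were found where class II transcripts were scarce. In endothelial-like cells (1819 in WT, 1846 in N-LKO), Cd74 was at 127 CPM in WT against 364 CPM in N-LKO, H2-Aa at 52.0 and 152 CPM, and H2-Ab1 at 50.7 and 102 CPM. Of the 7 genes, 5 were at least 2-fold higher in N-LKO (H2-DMb1 from 5 and 24 UMIs), beside 16.4% of 11197 genes tested that differed 2-fold in either direction, and H2-DMa and Ciita were not. The median ratio was 1.27 (that of H2-Eb1, 0.92 to 1.64) against 0.02 over all genes. Ciita rested on 12 WT and 25 N-LKO UMIs, with a ratio of 0.94 (-0.07 to 2.10).

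The endothelial level lay below that of free RNA in both libraries. Barcodes under 500 UMIs, taken here as free RNA of the suspension, had a class II level of 345 CPM (333 to 358) in WT and 1040 CPM (1014 to 1066) in N-LKO, against 285 and 750 CPM in endothelial-like cells. The ratio between these pools was 1.59 (1.53 to 1.66) for the 7 genes summed, against 1.39 (1.26 to 1.53) in endothelial-like cells. From hepatocyte genes in endothelial-like cells, 48.0% of their UMIs in WT and 48.4% in N-LKO would be free RNA, which alone would give 166 and 503 CPM. The endothelial-like levels lay between those values and the pools, and the part that the cells express was not tested. These pools held no barcode below 326 UMIs in WT or 377 UMIs in N-LKO. An endothelial share or level below its pool is not read as expression here. Without doublet removal the endothelial median was 0.75 and none of the 5 genes remained 2-fold higher, with ratios from 0.70 (H2-Ab1) to 0.85 (Cd74). With free RNA subtracted, H2-Ab1 had a ratio of 0.17 and H2-DMb1 was at or under 3 UMIs in a library.

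Hepatocyte-like cells were also below the level of the free RNA pool, at 251 CPM in WT against 452 CPM in N-LKO. None of the 7 genes reached a 2-fold difference there, beside 8.43% of 9894 genes tested, and their ratios ranged from 0.51 (H2-DMa) to 0.96 (H2-Ab1), with a median of 0.86 that was 2.10 at a minimum of 2000 UMIs. Of the WT cells, 8341 lay in a cluster led by Slco1a1, and of the N-LKO cells, 1988 lay in one led by Saa2 and Saa1, acute phase genes. In cholangiocyte-like cells, 2 of 7 genes, Cd74 (210 and 440 CPM) and Ciita (2 and 17 UMIs, log2 ratio 1.27, -0.53 to 4.71), were 2-fold higher in N-LKO, beside 25.2% of 12450 genes tested, and the summed level was 474 CPM in WT against 879 CPM in N-LKO. That N-LKO level was 0.845 of the level of barcodes under 500 UMIs, and with the expected free RNA subtracted Ciita and H2-DMb1 were at or under 3 UMIs in a library, so these differences are not read as expression.

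T/NK-like cells, 1182 in WT and 1931 in N-LKO, were above free RNA and higher in N-LKO. Cd74 was at 566 CPM in WT against 1377 CPM in N-LKO, H2-Aa at 235 and 547 CPM, and Ciita at 15.4 and 35.1 CPM from 24 and 104 UMIs. Of the 7 genes, 6 were at least 2-fold higher, beside 20.5% of 11670 genes tested in either direction, and H2-DMa was at 0.93 on the log2 scale. The median ratio was 1.22 (that of H2-Aa, 1.05 to 1.39) against 0.07 over all genes, and it was 0.84 at a resolution of 1.0.

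The class II UMIs of T/NK-like cells were unevenly spread over the cells. After thinning, 71.4% of WT and 41.0% of N-LKO cells held none, while 7.61% and 20.9% held 5 or more. The 7 Kupffer markers, which T and NK cells do not express, summed to 857 CPM in WT against 1132 CPM in N-LKO T/NK-like cells, with 7 of 7 detected. Cells with a Kupffer marker UMI were 26.6% of the class in WT and 40.9% in N-LKO, and had a class II level of 2473 CPM and 3988 CPM. Cells without one had 690 CPM (642 to 742) in WT and 1960 CPM (1893 to 2028) in N-LKO, which is 1.50 (1.39 to 1.62) as a log2 ratio. This split does not remove all macrophage RNA, since 4.46% of WT and 29.4% of N-LKO macrophage-like cells also held no Kupffer marker UMI. The 10 monocyte markers summed to 516 CPM in WT against 1088 CPM in N-LKO T/NK-like cells, and the part of macrophage or monocyte RNA in the result was not tested.

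Neutrophil-like cells (109 in WT, 722 in N-LKO) had H2-Aa at 245 and 586 CPM and Cd74 at 616 and 1427 CPM, and these 2 of the 7 genes were at least 2-fold higher, beside 36.8% of 12394 genes tested. Their Kupffer markers summed to 835 and 1113 CPM, with Marco at 0 in both libraries, and among cells without a Kupffer marker UMI the summed ratio was 0.53 (0.28 to 0.80) against 0.98 (0.79 to 1.18) in all cells of the class. Erythroid-like cells, 53 in WT and 122 in N-LKO, showed 817 and 1640 CPM of Cd74 beside 1829 and 2015 CPM of Kupffer markers. There 2 of 7 genes passed 2-fold, H2-DMb1 at 1.64 (-0.62 to 7.59) and Ciita at 1.51 (-0.79 to 7.47) with 1 WT UMI each, beside 42.3% of 12967 genes tested.

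Hepatic stellate-like cells went the other way. They held 905 WT and 628 N-LKO cells, with Cd74 at 966 CPM in WT against 825 CPM in N-LKO, H2-Aa at 440 and 355 CPM, and H2-DMa at 57.8 and 29.6 CPM. The median ratio was -0.31 (that of H2-Aa, -0.49 to -0.13) against -0.06 over all genes, none of the 7 reached a 2-fold difference beside 18.6% of 12158 genes tested, and Ciita alone was above 0, at 0.39 (-0.32 to 1.09). Kupffer markers were at 2119 CPM in WT against 1468 CPM in N-LKO in this class, the highest outside the macrophage-like class in WT. Stellate-like cells with a Kupffer marker UMI, 53.5% in WT and 46.7% in N-LKO, had a class II level of 3033 and 2535 CPM. Those without had 911 CPM (842 to 984) in WT and 978 CPM (897 to 1063) in N-LKO, a summed ratio of 0.10 (-0.07 to 0.27), an interval that held 0. With a mitochondrial limit of 10% the median ratio of the class was 0.27, from 441 WT and 53 N-LKO cells.

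Plasma-like cells, 101 in WT and 265 in N-LKO, carried more Cd74 relative to H2-Aa than any other class. Plasma cells are known to silence Ciita as they differentiate from B cells. Cd74 was at 807 CPM in WT against 1384 CPM in N-LKO, while H2-Aa was at 59.3 and 216 CPM, H2-Ab1 at 142 and 257 CPM and H2-Eb1 at 101 and 187 CPM. In barcodes under 500 UMIs H2-Aa was at 67.2 and 205 CPM, so its plasma-like level was near that of free RNA. In plasma-like cells Ciita had 1 UMI in WT and 10 in N-LKO, which is 1.36 as a log2 ratio (-0.94 to 7.32). H2-DMb1 had 0 UMIs in WT and 7 in N-LKO, a count at which no fold is given. There were 13.6 Cd74 UMIs (7.17 to 29.0) per H2-Aa UMI in WT plasma-like cells and 6.41 (5.18 to 8.01) in N-LKO. In the other 10 classes this number ranged from 1.97 in WT erythroid-like cells to 3.09 in N-LKO cholangiocyte-like cells, and it was 2.38 in WT and 2.48 in N-LKO barcodes under 500 UMIs. No interval of another class reached those of plasma-like cells in the same library. The WT value rested on 10 H2-Aa UMIs, and H2-Ab1 per H2-Aa was itself 2.40 (1.11 to 5.62) there against 0.747 (0.613 to 0.908) in WT B-like cells. Against H2-Ab1 the gap was smaller, with 5.67 Cd74 UMIs (3.65 to 9.15) per H2-Ab1 UMI in WT plasma-like cells and 4.02 (3.42 to 4.75) in WT B-like cells, whose intervals overlapped. In N-LKO these were 5.38 (4.42 to 6.61) and 3.85 (3.54 to 4.20), without overlap. Of the 7 genes, 3 passed 2-fold between the libraries in plasma-like cells (H2-Aa, Ciita, and H2-DMb1 through the 0.5 UMI added to each sum), beside 40.2% of 12045 genes tested. With the expected free RNA subtracted, Ciita and H2-DMb1 were at or under 3 UMIs in a library.

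**Figure D4:**
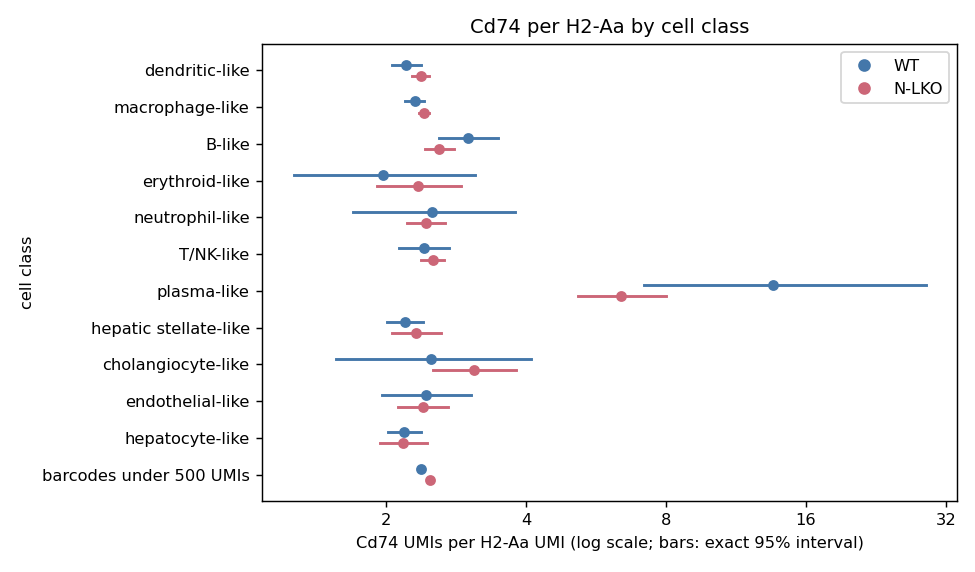
Cd74 UMIs per H2-Aa UMI (log axis) in each cell class and in barcodes under 500 UMIs, with exact 95% intervals for the classes. Plasma-like cells (13.6 in WT, from 10 H2-Aa UMIs, and 6.41 in N-LKO) lie above all other classes, which range from 1.97 to 3.09. H2-Aa of plasma-like cells was near its level in barcodes under 500 UMIs (59.3 against 67.2 CPM in WT, 216 against 205 CPM in N-LKO).

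Outside plasma-like cells, Cd74 per H2-Aa was similar in several classes of very different class II level. WT endothelial-like cells had 2.44 Cd74 UMIs (1.96 to 3.05) per H2-Aa UMI, T/NK-like cells 2.41 (2.13 to 2.73) and macrophage-like cells 2.30 (2.20 to 2.41). WT B-like cells had 3.00 (2.60 to 3.49), above the 2.21 (2.06 to 2.38) of WT dendritic-like cells without overlap, and the N-LKO values, 2.61 (2.42 to 2.81) and 2.37 (2.28 to 2.47), overlapped. H2-Eb1 per H2-Aa was 0.816 (0.747 to 0.892) in WT dendritic-like cells and 0.637 (0.599 to 0.677) in WT macrophage-like cells, with 0.731 (0.694 to 0.770) and 0.627 (0.607 to 0.647) in N-LKO, so the intervals of these classes were separate in both libraries.

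Over whole libraries, without any filter on barcodes, class II transcripts were 2.62-fold as frequent in N-LKO as in WT, at 2307 against 882 CPM. The members ranged from 2.14-fold (H2-DMa) to 2.73-fold (Cd74). Over the kept cells the level was 1517 CPM in WT against 3544 CPM in N-LKO, a 2.34-fold difference. WT levels at the N-LKO makeup of classes would give 3084 CPM, which is 2.03-fold the WT value. N-LKO levels at the WT makeup would give 1787 CPM, which is 1.18-fold. In both values the unnamed, mixed and cycling cells each counted as a class, although these did not hold like cells in the 2 libraries. Unnamed cells were mostly a Vsig4-led cluster in WT (567 of 901 cells, 4666 CPM). In N-LKO they were mostly the Eda-led cluster (2415 of 3795 cells, 589 CPM). The 2 values are therefore not a split over like cells. Dendritic-like, B-like and macrophage-like cells together were 12.5% of WT cells and 32.9% of N-LKO cells, and they held 46.0% and 62.3% of the class II UMIs.

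**Figure D5:**
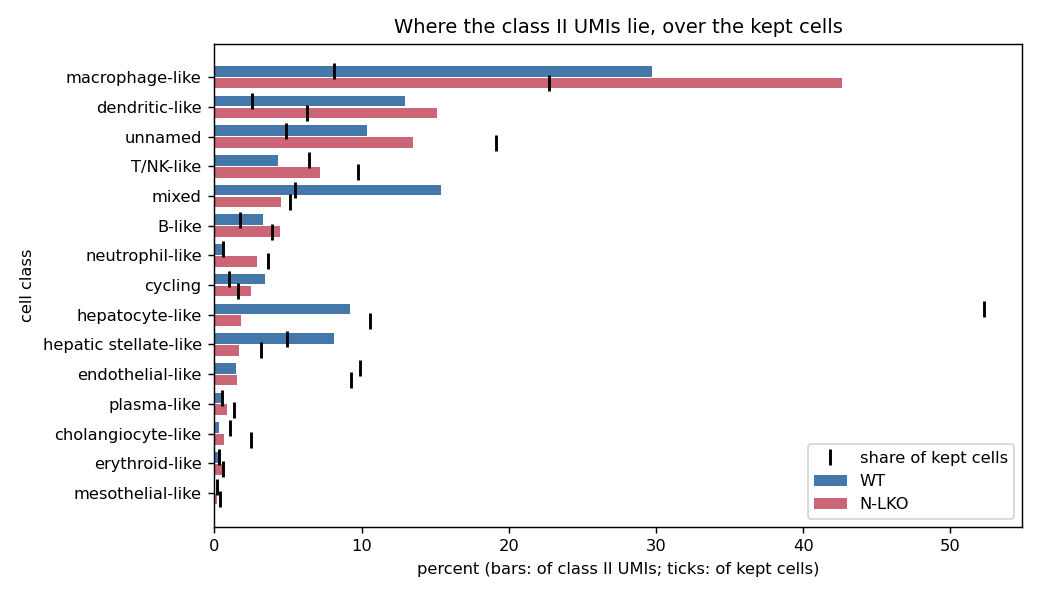
Share of the class II UMIs of kept cells held by each class (bars) and share of kept cells in that class (ticks), in percent, for WT and N-LKO. Macrophage-like cells hold 29.8% of class II UMIs in WT and 42.6% in N-LKO, and hepatocyte-like cells hold 9.18% and 1.78%.

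The other genes of the pathway were read from a list of 37, of which 36 were in the files. In dendritic-like cells 34 of them reached 5 CPM. Of these, 1 was 2-fold higher in N-LKO and none was 2-fold lower, beside 18.0% of all genes tested in either direction. The higher one was Rfxank (2 and 16 UMIs, log2 ratio 1.30, -0.52 to 4.74), a subunit of the RFX complex on the X box. The 6 processing enzymes had a median ratio of 0.53 in dendritic-like cells. Ctss, the cathepsin that trims the invariant chain, was at 340 CPM in WT against 489 CPM in N-LKO, a ratio of 0.52 (0.32 to 0.73), and Ifi30, the lysosomal thiol reductase, was at 275 and 400 CPM, a ratio of 0.54 (0.31 to 0.77). Of the 6 listed neighbors in the class II region that are not class II genes, 5 reached 5 CPM, with a median ratio of -0.35, and Psmb8, an immunoproteasome subunit for the class I pathway, was at 262 CPM in WT against 165 CPM in N-LKO, -0.67 (-0.93 to -0.40).

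In B-like cells 34 of the 36 reached 5 CPM and 1 was 2-fold higher, beside 24.7% of all genes tested in either direction. It was Nfya, an NF-Y subunit, with 4 and 32 UMIs (log2 ratio 1.31, -0.04 to 3.42). In macrophage-like cells none did, and the 4 other class II genes were under 5 CPM in both libraries. Cd86, a costimulatory ligand, was at 384 CPM in WT against 206 CPM in N-LKO macrophage-like cells, -0.90 (-1.03 to -0.78), while in dendritic-like cells it was at 128 and 221 CPM, 0.78 (0.45 to 1.13). Irf1, a transcription factor induced by interferon gamma, was at 98.3 and 64.3 CPM in macrophage-like cells, a ratio of -0.62 (-0.85 to -0.37). Ciita had a ratio of 0.45 (0.17 to 0.75) in the same cells. Ifng itself had 0 WT and 3 N-LKO UMIs in macrophage-like cells and 26 and 32 UMIs in T/NK-like cells.

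In T/NK-like cells 31 of the 36 reached 5 CPM. Of these, 6 were 2-fold higher, namely Ctss, Ctsb, Ctsd, Ifi30, March1 and Cd83, and Nfyb was 2-fold lower, a share near the 20.5% of all genes tested there. March1, the ubiquitin ligase that removes class II molecules from the surface, was at 49.4 CPM in WT against 130 CPM in N-LKO T/NK-like cells. In endothelial-like cells 28 of the 36 reached 5 CPM, of which Ctss, March1, Cd83 and Cd86 were 2-fold higher and Rfxank was 2-fold lower (14 and 5 UMIs), again a share near the 16.4% of all genes tested.

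The genes with levels most like those of the 7 were sought across classes. Over 23 combinations of class and library with at least 50 cells, from 12 classes, the closest of 7135 genes was Cd180, a Toll-like receptor homolog of B cells and macrophages (r = 0.97), followed by Ifi30 (0.96), Rassf4 (0.94), March1 (0.94), Pld4 (0.94), Rel (0.94), Ly86, the partner of Cd180 (0.93), Actr3 (0.93), Fam49b (0.93) and Otulinl (0.93). The members themselves had r from 0.92 (H2-DMb1) to 1.00 (H2-Eb1) with their joint profile. Among the 7 promoter factors listed, r was 0.58 for Creb1, 0.44 for Nfya, 0.21 for Nfyc, 0.20 for Rfxap, 0.09 for Rfx5, -0.07 for Rfxank and -0.21 for Nfyb, and some of these rest on few UMIs. The points share 2 libraries, and these correlations are descriptions.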

How the data were processed

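The data were scRNA-seq counts from 1 WT and 1 N-LKO library (10x 3′ kit v3). The authors deposited raw UMI counts for each barcode, made with Cell Ranger 7.1.0 per the file headers. The labels' processing notes also name Seurat and the build mm9. The files hold gene IDs and no coordinates. Of these IDs, 99.6% were found in GENCODE M21. The study's own cell selection was not used here.

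Barcodes with at least 1000 UMIs, 400 genes and at most 30% mitochondrial UMIs were kept, and those with a Scrublet score (scanpy 1.11.5) of 0.25 or more were removed as doublets (8.55% in WT, 10.6% in N-LKO). Counts were scaled to 10000 per cell. Clusters came from 2000 variable genes without class II genes, 30 principal components, 20 neighbors and leidenalg 0.10.2 at a resolution of 0.3, with myeloid clusters split again at 0.5. Classes were named from 19 marker lists, by thresholds set after seeing the data. Clusters with markers of unrelated types were left as mixed (5.47% of WT and 5.13% of N-LKO cells). Clusters were left unnamed (4.89% and 19.1%) for a marker score under 0.2, fewer than 3 raised markers, or leading genes mostly of another type. Clusters led by proliferation genes were set aside as cycling (1.01% and 1.59%). UMIs were summed per class and scaled to 1000000 (CPM). Levels have exact Poisson intervals, shares Clopper-Pearson intervals and ratios exact conditional binomial intervals, at 95%. Each ratio is N-LKO over WT after adding 0.5 UMI to both sums, and genes at 5 CPM or more in a library were tested for a 2-fold difference. PCR duplicates are removed by UMIs, and intervals and limits cover counting error only. The code was tested on simulated data. Named genes are the 7 members, a pathway list and the 10 genes most like the members. Members and lists were chosen with earlier results of these data known.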

Additional observations from a re-analysis of the deposited data

Results flagged for a closer look

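Class II transcripts were also read in barcodes outside the comparisons. Barcodes from 500 up to 1000 UMIs, which were not kept, had a summed class II level of 565 CPM in WT (56087 barcodes) and 1439 CPM in N-LKO (46124 barcodes), above the 345 and 1040 CPM of barcodes under 500 UMIs. An unnamed cluster led by Vsig4, Cdh5 and Cd5l, which joins Kupffer and endothelial markers, had 4666 CPM in WT (567 cells) and 5524 CPM in N-LKO (1374 cells). The unnamed cluster led by Eda and Grip1 had 589 CPM in N-LKO (2415 cells). The mixed cluster led by Gpr141 and Cd209a had 7087 CPM in WT against 6295 CPM in N-LKO. Among N-LKO cells, a mixed cluster led by Cxcl2 and Tnf had 8819 CPM (249 cells), and a mixed cluster with plasmacytoid and endothelial markers had 1921 CPM (92 cells).

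The direction of the class II difference was not the same in all classes. The median log2 ratio was 1.22 in T/NK-like cells and 1.27 in endothelial-like cells but -0.31 in hepatic stellate-like cells. Endothelial-like levels (285 and 750 CPM) lay below barcodes under 500 UMIs (345 and 1040 CPM) and are not read as expression. Among cells without a Kupffer marker UMI the summed ratio was 0.10 (-0.07 to 0.27) in stellate-like cells. It was 1.50 (1.39 to 1.62) in T/NK-like cells. With 1 library per group the difference between classes was not tested.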

How the results depend on the processing

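Of the alternatives to the 4 class medians, 32 stayed within the counting interval of the main value and 6 did not. With a mitochondrial limit of 10%, the median log2 ratio was -0.0048 in dendritic-like and -0.3168 in macrophage-like cells. With free RNA subtracted it was 0.0971 in dendritic-like and 0.0248 in B-like cells. Without doublet removal it was 0.7476 in endothelial-like cells. Among macrophage-like cells without a Kupffer marker UMI, an alternative chosen after seeing the data, it was -0.4804. The other settings were minima of 500 and 2000 UMIs, a resolution of 1.0, clustering with class II genes, scaling to the median gene, summed UMIs and thinned cells. H2-DMb1 in endothelial-like cells, called higher in N-LKO, had a ratio of -0.1109 at a mitochondrial limit of 10%, from 381 WT and 63 N-LKO cells. Of the values for single genes and other classes, 248 stayed within the interval and 57 moved beyond it without reversing a 2-fold call. Some of the moved values changed sign or lost a call. Among macrophage-like cells without a Kupffer marker UMI, H2-Aa went from 0.25 to -0.48 and H2-Ab1 from 0.19 to -0.62. Over the settings, the median ranged from 0.2274 to 1.568 in neutrophil-like, 0.7796 to 2.5837 in erythroid-like, 0.68 to 2.0953 in hepatocyte-like, 0.8389 to 1.5472 in T/NK-like and -0.401 to 0.2696 in hepatic stellate-like cells. The causes were not tested. At a minimum of 2000 UMIs none of the 4 classes had 50 cells in both libraries, and at a mitochondrial limit of 10% no cluster was named B-like. Subtraction gave no endothelial median because H2-DMb1 fell to the 3-count limit. No paired analysis was possible because each group had 1 library.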
